A study of Arabidopsis thaliana with 15 samples.

Results

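The photosystem core and the electron transport chain of the thylakoid membrane were followed through 35 nuclear genes, taken as a list of named loci. The list holds 12 subunits of photosystem I (PSI), 1 thylakoid curvature protein once counted as a PSI subunit, 13 genes of photosystem II (PSII), 6 electron carrier genes and 3 subunits of the chloroplast ATP synthase, and it leaves out the light-harvesting antenna. All 35 loci were found among the 25410 loci that the probes could be matched to, and each gene was represented by its brightest probe. Every one of these probes was well above background on all 15 arrays and none was saturated, so all 35 genes were tested in every comparison.

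The arrays compared Arabidopsis plants with altered *ANAC046*, a NAC transcription factor gene studied in leaf senescence, with the Columbia wild type (WT) of the same stage. Overexpressing plants (OX) carried *ANAC046* behind the constitutive 35S promoter, were grown on soil without dark treatment, and their leaves were taken at 50 days after sowing (DAS), as were those of WT. Knockout plants (KO, *anac046*) carry a transposon in the coding region of the gene and are a single insertion line, and SRDX plants express *ANAC046* fused to the SRDX repressor domain behind the same 35S promoter. KO, SRDX and WT of the dark experiment were sampled after 5 days in the dark (5 DAD). The labels call these samples seedlings grown on agar under foil, whereas the Methods speak of leaves. All 5 groups had 3 arrays and share the Columbia background. Each OX array and each SRDX array came from a line of its own (line 1, 2 or 3 after its replicate number). The Methods call the 3 arrays of a group biological replicates, without saying how the plants of the KO and WT replicates were grown or pooled, and p-values measure the spread between these samples.

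Signals are given on the log2 scale, with 0 at the median of an array, after quantile normalization of the 15 arrays. A gene was called higher or lower at a limma p-value under 0.15 after Benjamini-Hochberg adjustment over all genes tested. The limit is that of the Methods, which took the false discovery rate from q-values instead and kept only a capped number of top upregulated genes. No cap was set here, and counts by Storey's q-values are given as well. Per array, the share of spots well above background was 62.2 to 80.9%, and the median signal was 5.17 to 11.35 times the local background. Of the 5 slides, WT at 50 DAS, OX and WT at 5 DAD each filled 1, another held SRDX lines 1 and 2, and the last held the 3 KO arrays together with SRDX line 3. Slide and genotype therefore cannot be told apart in any comparison with WT. The *ANAC046* probe read 2.64, 8.95 and 9.01 in OX lines 1, 2 and 3, against 0.42 to 0.77 in WT. In KO no array measured it well above background, and in SRDX it read 6.29 to 6.42, against 5.11 to 5.35 in WT. In bulk samples, fewer photosynthetic cells and less RNA per cell cannot be told apart.

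In the thylakoid membrane, PSII takes electrons from water and passes them through plastoquinone and the cytochrome complex to plastocyanin. PSI moves them on to ferredoxin, and ferredoxin-NADP reductase (FNR) makes NADPH, while the proton gradient drives ATP synthase. The reaction centre proteins that bind the chlorophylls of charge separation are encoded in the plastid, and the nucleus supplies most of the subunits around them. Transcripts of these nuclear genes are well known to be abundant in lit leaves and to decline in prolonged darkness and in senescence.

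The first comparison set WT at 5 DAD against WT leaves at 50 DAS. All 35 genes were lower in the dark-treated plants, by log2 differences from −1.0 to −8.69 with a median of −3.08. Over all 25944 genes tested, 40.2% were lower and 45.9% higher, and the median difference was 0.13. For 34 genes all 3 dark arrays lay below all 3 leaf arrays, as for 39.1% of all genes, and for *PETE1* 1 leaf array had an outlier spot, so that 2 were compared. The adjusted p-values of the 35 genes ran from 2.43e-07 to 1.20e-04. Light, age, culture, harvested tissue and scan day all differ between these groups and cannot be told apart. The same dark WT arrays served as the WT for KO and SRDX.

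*PSBS* (AT1G44575), the sensor protein of PSII that switches excess light energy into heat, had the largest difference of the list. It read −0.24, 0.12 and 0.24 in the 3 dark WT arrays, against 8.73, 8.87 and 8.58 in WT leaves, a 413-fold lower signal (log2 difference −8.69, standard error 0.15, limma adjusted p = 2.47e-07). The arrays of each stage lay within a narrow band, far apart from each other. *PSB28* (AT4G28660), an assembly factor of PSII, read 0.53, 0.60 and 0.87 in dark WT and 7.70, 7.82 and 7.43 in WT leaves, a 127-fold lower signal (−6.99, standard error 0.15). *LFNR2* (AT1G20020), 1 of the leaf FNR isoforms, read 3.23, 3.50 and 3.40 in dark WT and 8.51, 8.56 and 8.33 in leaves, 34.1-fold lower. No array of either stage came near the other stage in these genes. *PSBTn* (AT3G21055), a small lumenal PSII protein, read 5.27, 5.44 and 5.62 in dark WT, against 10.42, 10.49 and 10.41 in leaves (31.8-fold lower). *PSBQ1* (AT4G21280), an extrinsic protein of the oxygen-evolving complex, read 4.12, 4.2 and 4.48 in dark WT, against 9.1, 9.27 and 9.23 in leaves (30.6-fold lower). The groups did not overlap for any of these 5 genes, and *PSAK*, *PSAH2* and *ATPD* followed closely at −4.92, −4.75 and −4.66. In the authors' table the difference of *PSBS* was −7.1 and that of *PSB28* −5.8.

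At the other end, among genes named for their small differences, *PSBR* (AT1G79040), which helps to hold the oxygen-evolving complex in place, read 9.45, 9.61 and 9.72 in dark WT and 10.60, 10.55 and 10.63 in WT leaves. This was a 2.0-fold lower signal (−1.0, standard error 0.10, limma adjusted p = 1.20e-04). With each array scaled to its 75th percentile, the *PSBR* difference was −1.89 and the median of all genes 0.28. *PSBO1* (AT5G66570), the major copy of the manganese-stabilizing protein of PSII, was 3.49-fold lower, and *PSAD2* (AT1G03130) 3.62-fold lower. The spread within the list was wide even within a complex. In the oxygen-evolving complex, log2 differences ran from −4.94 in *PSBQ1* to −1.0 in *PSBR*, and *PSBP1* (AT1G06680) stood at −4.11. In the stromal PSI subunits that form the ferredoxin docking site they ran from −3.07 in *PSAD1* (AT4G02770) to −1.85 in *PSAD2*. The median over the 12 PSI genes was −3.04 and over the 13 PSII genes −3.08.

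**Figure D1:**
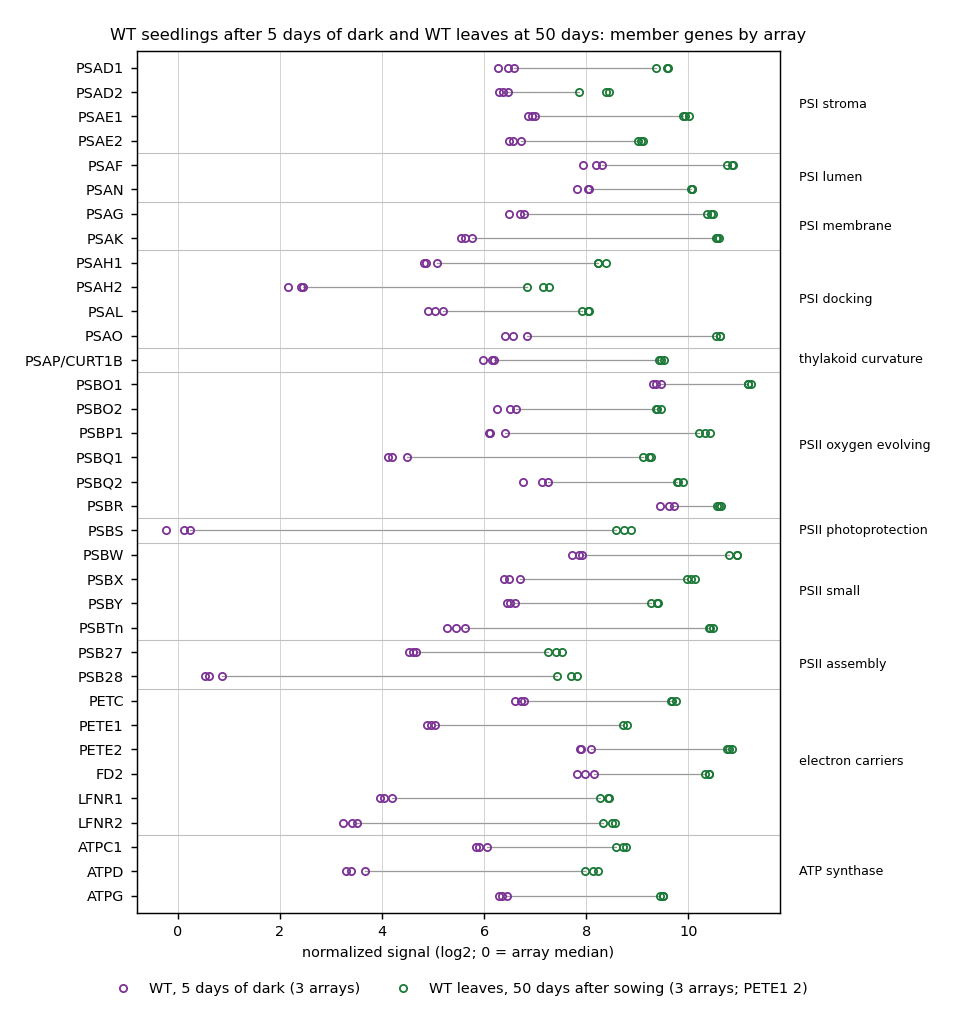
Normalized log2 signal (x axis) of each of the 35 genes (rows, grouped by role) on the WT arrays at 5 DAD (purple) and in WT leaves at 50 DAS (green), 1 point per array, with a grey line across the gap. The gap is narrowest for PSBR (log2 difference −1.0) and widest for PSBS (−8.69), and no row overlaps.

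After 5 days in the dark, KO plants had higher signals than WT for 16 of the 35 genes and lower signals for none. The calls covered 4 of the 6 electron carrier genes, 2 of the 3 ATP synthase genes, 4 of the 12 PSI genes, 5 of the 13 PSII genes and the curvature gene. The share of 45.7% of the list called higher stands beside 18.1% of the 25457 genes tested. Another 14.2% of all genes were lower. The median log2 difference was 0.41 over the 35 genes and 0.03 over all genes, and 33 of the 35 were above 0. For 19 genes all 3 KO arrays lay above all 3 WT arrays (54.3%, against 26.5% of all genes). Scaling to the 75th percentile turned the balance of all genes from 4617 higher and 3605 lower into 3746 higher and 5489 lower, while it called 19 of the 35 genes higher, beside 14.7% of all genes, and none lower.

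*LFNR2* had the largest difference in KO. It read 4.56, 4.64 and 4.59 in KO, against 3.23, 3.50 and 3.40 in WT, 2.33-fold higher (log2 difference 1.22, standard error 0.25, limma adjusted p = 0.0229). *PSBS* read 1.09, 1.02 and 1.29 in KO and −0.24, 0.12 and 0.24 in WT, 2.14-fold higher (1.1, standard error 0.20). In both genes the lowest KO array was clear of the highest WT array. *PSBY* (AT1G67740), a small membrane protein of PSII, read 7.35, 7.64 and 7.83 in KO, against 6.45, 6.51 and 6.61 in WT (2.12-fold higher). *PETC* (AT4G03280), the Rieske iron-sulphur protein of the cytochrome complex, read 7.55, 7.79 and 7.96 in KO and 6.61, 6.72 and 6.77 in WT (2.09-fold higher). *PSAF* (AT1G31330), which docks plastocyanin to PSI, read 8.82, 9.33 and 9.24 in KO, against 8.31, 7.94 and 8.18 in WT (1.98-fold higher, adjusted p = 0.0462). KO array 1 was the lowest of the 3 KO arrays for *PSBY*, *PETC* and *PSAF*, and still above every WT array.

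The other 11 called genes differed by 0.41 to 0.79 on the log2 scale. They were the plastocyanin gene *PETE1* (AT1G76100) at 0.79, *ATPG* (AT4G32260, the b′-type stalk subunit of ATP synthase) at 0.65, the PSII repair factor gene *PSB27* (AT1G03600) at 0.64, *PSAE2* (AT2G20260) at 0.57, *PSBP1* at 0.54, the thylakoid curvature gene *PSAP/CURT1B* (AT2G46820) at 0.52, *LFNR1* (AT5G66190) at 0.48 and *PSAD1* at 0.43. *PSAD2*, *PSBO1* and *ATPC1* (AT4G04640, the gamma subunit of ATP synthase) each differed by 0.41. None of the 4 genes at the docking side of PSI for mobile antenna complexes was called, with *PSAH1* (AT3G16140) at 0.11, *PSAH2* (AT1G52230) at −0.31, *PSAL* (AT4G12800) at −0.15 and *PSAO* (AT1G08380) at 0.41. *PSAH2* and *PSAL* were the only genes of the list with a lower mean in KO than in WT, and neither passed the test (adjusted p = 0.594 and 0.534).

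The number of calls in KO moved with single arrays, as it did over all genes. It was 7 without WT replicate 1, beside 9.57% of all genes higher, 6 without WT replicate 2 (7.16%), 10 without WT replicate 3 (8.9%) and 8 without KO replicate 3 (9.13%). Only *LFNR2*, *PETC*, *PETE1*, *PSB27*, *PSBS* and *PSBY* kept their calls whichever of the 9 arrays was left out, and *PSAF* lost its call without WT replicate 2 (adjusted p = 0.163). With the slide as a random block, 9 genes were called, beside 11.2% of all genes. The block cannot separate slide from genotype here, since dark WT filled a slide of its own. By Storey's q-values 21 of the 35 genes were higher in KO, beside 28.6% of all genes.

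SRDX plants had higher signals than WT for 17 of the 35 genes, and again for none lower. The calls covered 5 of the 6 electron carrier genes, 2 of the 3 ATP synthase genes, 4 of the 12 PSI genes, 5 of the 13 PSII genes and the curvature gene. The share of 48.6% stands beside 11.6% of all genes higher, and 8.8% of all genes were lower. The median log2 difference was 0.58 over the 35 genes and −0.04 over all genes. For 24 genes all 3 SRDX lines lay above all WT arrays (68.6%, against 17.5% of all genes). Taken alone, line 1 lay above all WT arrays for 35 genes, line 2 for 24 and line 3 for 34. Over all genes the shares were 41.3%, 40.1% and 41.7%. Line 2 lay below all WT arrays for 3 of the 35 genes (8.57%, against 37.8% of all genes).

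*PSBS* had the largest difference in SRDX. It read 0.99, 1.38 and 1.55 in SRDX lines 1, 2 and 3, against −0.24, 0.12 and 0.24 in WT, 2.41-fold higher (log2 difference 1.27, standard error 0.20, limma adjusted p = 0.0190). *FD2* (AT1G60950), the main leaf ferredoxin, read 9.12, 8.93 and 9.39 in SRDX and 7.82, 7.97 and 8.15 in WT, 2.24-fold higher (1.17, standard error 0.23, adjusted p = 0.0285). All lines were clear of WT in both genes. *PSB28* read 2.18, 1.31 and 1.96 in SRDX, against 0.53, 0.60 and 0.87 in WT (2.22-fold higher). *ATPG* read 7.31, 7.26 and 7.77 in SRDX and 6.28, 6.34 and 6.45 in WT (2.14-fold higher). *PSBY* read 7.27, 7.8 and 7.8 in SRDX, against 6.45, 6.51 and 6.61 in WT (2.14-fold higher). Line 2 was the lowest of the lines for *PSB28* and line 1 for *PSBY*, each still above WT. In the authors' normalized table the log2 difference of *PSBS* was 0.53 in SRDX and 0.46 in KO, and that of *PSB28* was 0.54 in SRDX. All 3 passed the limit there too, but *PSBS* was then below *FD2* at 1.04.

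*LFNR2* was close behind at 1.09, and the remaining 11 calls were *PSBP1* at 0.95, *PSAN* (AT5G64040, a lumenal PSI subunit) at 0.87, *PSAE2* and *PSB27* at 0.86, *PETC* at 0.85, *PSAF* at 0.78, *ATPC1* at 0.69, *PSAP/CURT1B* at 0.67, *PETE1* at 0.61, *LFNR1* at 0.58 and *PSAD1* at 0.39. The calls of *FD2*, *PETC*, *PSB27*, *PSBP1*, *PSBS* and *PSBY* stood whichever of the 9 arrays was left out. The others were lost without at least 1 array, *PSB28* without WT replicate 2 (adjusted p = 0.157) and *ATPG* without WT replicate 1 or 2 (0.159 and 0.170). The number of calls was 8 without WT replicate 1, beside 3.35% of all genes higher, 7 without WT replicate 2 (2.54%), 11 without SRDX line 3 (4.26%) and 28 without SRDX line 2 (20.0%). With the slide as a random block, which cannot separate slide from genotype here either, it was 15, beside 8.35%. By Storey's q-values 27 of the 35 genes were higher in SRDX, beside 18.7% of all genes.

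**Figure D2:**
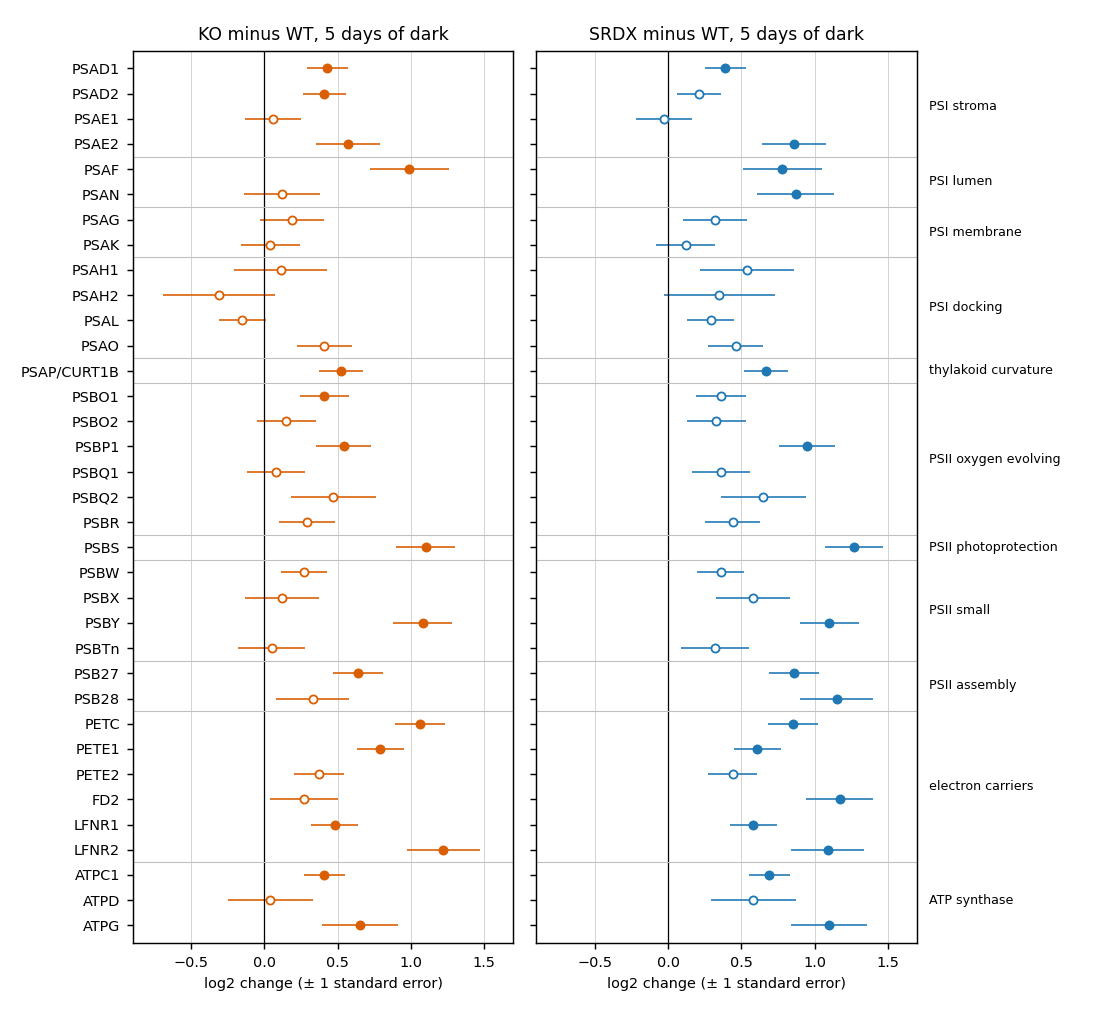
Log2 difference from WT at 5 DAD (x axis) of each of the 35 genes (rows, grouped by role), in KO (left panel, orange) and SRDX (right panel, blue), with bars of 1 standard error from limma. Filled points passed an adjusted p-value of 0.15, 16 genes in KO and 17 in SRDX, all to the right of 0.

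KO and SRDX share their WT arrays, so the lists are set side by side here and their overlap is not read as a result. Called in both were 14 genes, in KO alone *PSAD2* and *PSBO1*, and in SRDX alone *FD2*, *PSAN* and *PSB28*. The remaining 16 genes were called in neither. Among these were *PSAG* (AT1G55670) at 0.19 in KO and 0.32 in SRDX and *PSAK* (AT1G30380) at 0.04 and 0.12, both membrane subunits at the edge of PSI. The docking genes *PSAH1*, *PSAH2*, *PSAL* and *PSAO* stood at 0.54, 0.35, 0.29 and 0.46 in SRDX. *PSAE1* (AT4G28750) stood at 0.06 in KO and −0.03 in SRDX, where it was the only gene of the list below 0. This sign rests on its brightest probe, since its other 3 probes read 0.17 to 0.26 in SRDX, and with the mean of all probes all 35 genes were above 0. With the authors' normalized values, 4 of the 35 genes were below 0 in SRDX. These were *PSBO1* at −0.25, *PSBW* at −0.22, *PETE2* at −0.14 and *PSAE1* at −0.04. The PSII genes called in neither included *PSBO2* (AT3G50820) at 0.15 in KO and 0.33 in SRDX and *PSBQ1* at 0.08 and 0.36. *PSBQ2* (AT4G05180) stood at 0.47 and 0.65 and *PSBR* at 0.29 and 0.44. Of the small subunit genes, *PSBW* (AT2G30570) stood at 0.27 and 0.36, *PSBX* (AT2G06520) at 0.12 and 0.58 and *PSBTn* at 0.05 and 0.32. *PETE2* (AT1G20340), the other plastocyanin gene, stood at 0.37 in KO and 0.44 in SRDX, and *ATPD* (AT4G09650), the delta subunit of ATP synthase, at 0.04 and 0.58.

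A direct contrast of SRDX with KO called none of the 35 genes in either direction (limma with Benjamini-Hochberg adjustment, lowest adjusted p = 0.234), where 0.141% of all genes were higher and 0.126% lower. At an unadjusted limma p-value under 0.05, 4 of the 35 genes were higher in SRDX and none was lower. Over all 25457 genes, 3047 passed that limit in either direction. The largest differences were 0.90 for *FD2* (standard error 0.23), 0.82 for *PSB28* (0.25, adjusted p = 0.291) and 0.74 for *PSAN* (0.26, adjusted p = 0.329). *FD2* read 9.12, 8.93 and 9.39 in SRDX, against 8.68, 7.91 and 8.18 in KO, with no overlap. *PSB28*, *FD2*, *PSAL* and *ATPC1* were the 4 genes with all SRDX lines above all KO arrays, a pattern found in 3.61% of all genes. The opposite pattern held for *PSAD2* alone, with 6.66, 6.36 and 6.74 in SRDX and 6.75, 6.78 and 6.83 in KO, and for 7.97% of all genes. Within the slide that SRDX line 3 shared with KO, line 3 lay above the KO mean for 30 of the 35 genes and 41.8% of all genes. The median difference was 0.30 over the 35 genes and −0.09 over all genes, and the largest of the list, 1.14, was in *FD2*. *FD2* was past the limit without KO replicate 1 or without SRDX line 3, and *PSAN* and *ATPG* without KO replicate 1, where 3 genes were called. *PSB28* was past it without SRDX line 2. Over all genes, 3.74% were higher without KO replicate 1, 0.301% without SRDX line 2 and 8.02% without SRDX line 3.

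**Figure D3:**
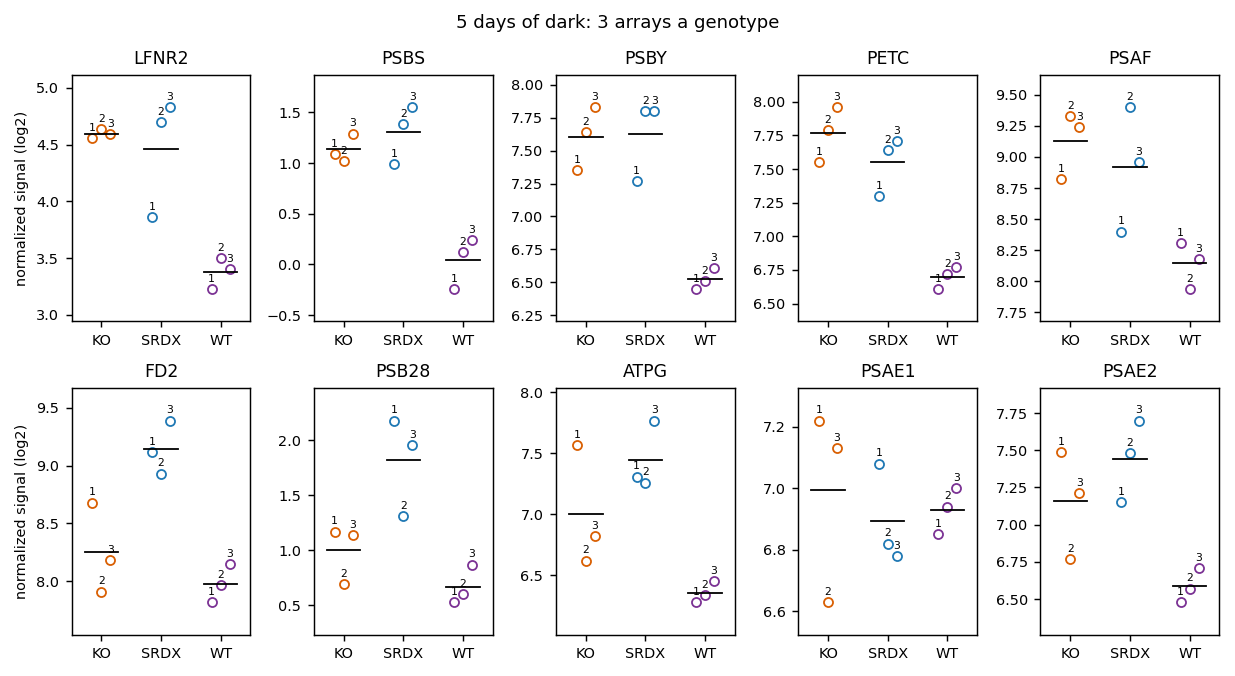
Normalized log2 signal (y axis, a scale for each panel) of 10 genes on the KO, SRDX and WT arrays at 5 DAD, with replicate or line numbers beside the points and bars at the group means. LFNR2, PSBS, PSBY, PETC and PSAF lie above WT in both KO and SRDX, FD2 and PSB28 are clear of WT in SRDX alone, and PSAE1 overlaps WT where PSAE2 does not.

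For 7 subunits the list holds a pair of paralogs, and the difference between paralogs on the same array was compared over the 3 genotypes at 5 DAD with an exact permutation test of the F statistic over all 280 partitions of the 9 arrays, adjusted over the 7 pairs. The *PSAE* pair, 2 copies of a stromal PSI subunit at the ferredoxin docking site, was the only pair past 0.15 (exact p = 0.0143, adjusted p = 0.1). *PSAE1* read 7.22, 6.63 and 7.13 in KO, 7.08, 6.82 and 6.78 in SRDX and 6.85, 6.94 and 7.0 in WT, with overlapping groups. *PSAE2* read 7.49, 6.77 and 7.21 in KO, 7.15, 7.48 and 7.70 in SRDX and 6.48, 6.57 and 6.71 in WT. Relative to *PSAE2*, *PSAE1* thus changed by −0.51 in KO (standard error 0.06) and −0.89 in SRDX (standard error 0.25). KO and SRDX were not tested against each other in this pair. With the mean of all probes the values were −0.42 and −0.70. The adjusted p-value of this pair was 0.05 to 0.138 under the alternatives tried. The second *PSAE* copy has a single probe, and cross-hybridization between near-identical copies was not tested.

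The next smallest was the plastocyanin pair (exact p = 0.0464, adjusted p = 0.163), in which *PETE1* gained 0.42 on *PETE2* in KO and 0.17 in SRDX. *LFNR1* changed relative to *LFNR2* by −0.74 in KO and −0.50 in SRDX, which did not pass the limit (exact p = 0.161, adjusted p = 0.212). The *PSAD*, *PSAH*, *PSBO* and *PSBQ* pairs had adjusted p-values from 0.169 to 0.3. The number of pairs past the limit was 3 to 6 under 4 of the alternatives. In leaves at 50 DAS, 3 arrays against 3 cannot give an exact p below 0.1, and the differences between paralogs changed by −0.22 to 0.23 between OX and WT, the last in the *PSAE* pair (exact permutation p = 0.1, two-sided).

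Within the dark-treated groups the genes did not vary alike. The median SD over 3 arrays was 0.25 in KO and 0.26 in SRDX, against 0.14 in WT. KO replicate 1 was the highest of the 3 KO arrays for 19 genes and the lowest for 12. SRDX line 2 was the lowest of its group for 21 genes. No shares of all genes stand beside these counts, so they cannot tell a trait of the list from a deviation of whole arrays. Over all genes well above background on every array, not the list alone, KO replicate 2 and SRDX line 2 deviated alike from their group means (r = 0.80). *PSAH2* read 2.78, 1.46 and 1.83 in KO replicates 1, 2 and 3, 3.05, 2.02 and 2.99 in SRDX lines 1, 2 and 3, and 2.40, 2.16 and 2.45 in WT. KO replicates 2 and 3 and SRDX line 2 were below every WT array, and the other 3 were above every WT array. In *PSAH1* too, KO replicate 1 was the highest of its group and SRDX line 2 the lowest, with 5.73, 4.48 and 4.86 in KO and 5.55, 5.03 and 5.79 in SRDX, against 4.85, 4.82 and 5.07 in WT. *PSAF* and *PSBY* ran the other way in KO, where replicate 1 was the lowest. Over the 35 genes, which share these arrays, the excess of KO replicate 1 over the other KO arrays and that of SRDX line 2 over the other SRDX lines correlated with r = −0.70, given as a description. The median signal was 9.12 times background on KO replicate 1 and 5.83 and 5.17 times on replicates 2 and 3. It was 8.16 times on SRDX line 2 and 9.76 and 10.02 times on lines 1 and 3, and its part in this pattern was not tested.

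In leaves at 50 DAS, none of the 35 genes was called higher or lower in OX (limma with Benjamini-Hochberg adjustment, lowest adjusted p = 0.197), where 0.092% of the 20647 genes tested were higher and 0.00484% lower. The mean was below WT for 32 genes, and 1, *PSBQ2*, was lower at an unadjusted limma p-value under 0.05. Over all 20647 genes, 4768 passed that limit in either direction. The median log2 difference was −0.21, against −0.08 over all genes, and with scaling to the 75th percentile it was −0.40. In 8 genes (22.9%) every OX line was below every WT array, close to the 21.1% of all genes.

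The lines themselves differed. Line 1 had a median of 0.02 relative to the WT mean over the 35 genes, line 2 of −0.16 and line 3 of −0.46, beside −0.03, −0.12 and −0.05 over all genes. In line 1, 11 genes lay below every WT array (38.3% of all genes) and 9 above (28.7%). In line 2, 24 lay below (50.2%) and 3 above (34.7%), and in line 3, 30 lay below (46.4%) and 1 above (40.9%). *PSB27* read 7.5, 6.65 and 5.78 in OX lines 1, 2 and 3, against 7.40, 7.53 and 7.25 in WT. *PSAH1* read 8.17, 7.70 and 6.99 in OX and 8.39, 8.23 and 8.22 in WT, and *PSAL* 7.96, 7.40 and 6.90 in OX and 8.05, 8.03 and 7.91 in WT. Line 3 was the lowest for each of these 3 genes, at −1.61, −1.29 and −1.09 relative to the WT mean, and these genes were picked after their values were seen. *PSBO1*, in contrast, read 11.22 in all 3 OX lines and 11.17, 11.17 and 11.22 in WT. Quantile normalization gives probes of the same rank the same value, so small differences among the brightest probes are not resolved there. *ANAC046* itself was lowest in line 1. Without line 1, 16 of the 35 genes were called lower in OX (45.7%), beside 31.3% of all genes. By Storey's q-values over all 6 arrays, 12 of the 35 genes were lower in OX, beside 34.5% of all genes. In 1 fit of all 15 arrays, 2 were lower, beside 16.0% of all genes.

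**Figure D4:**
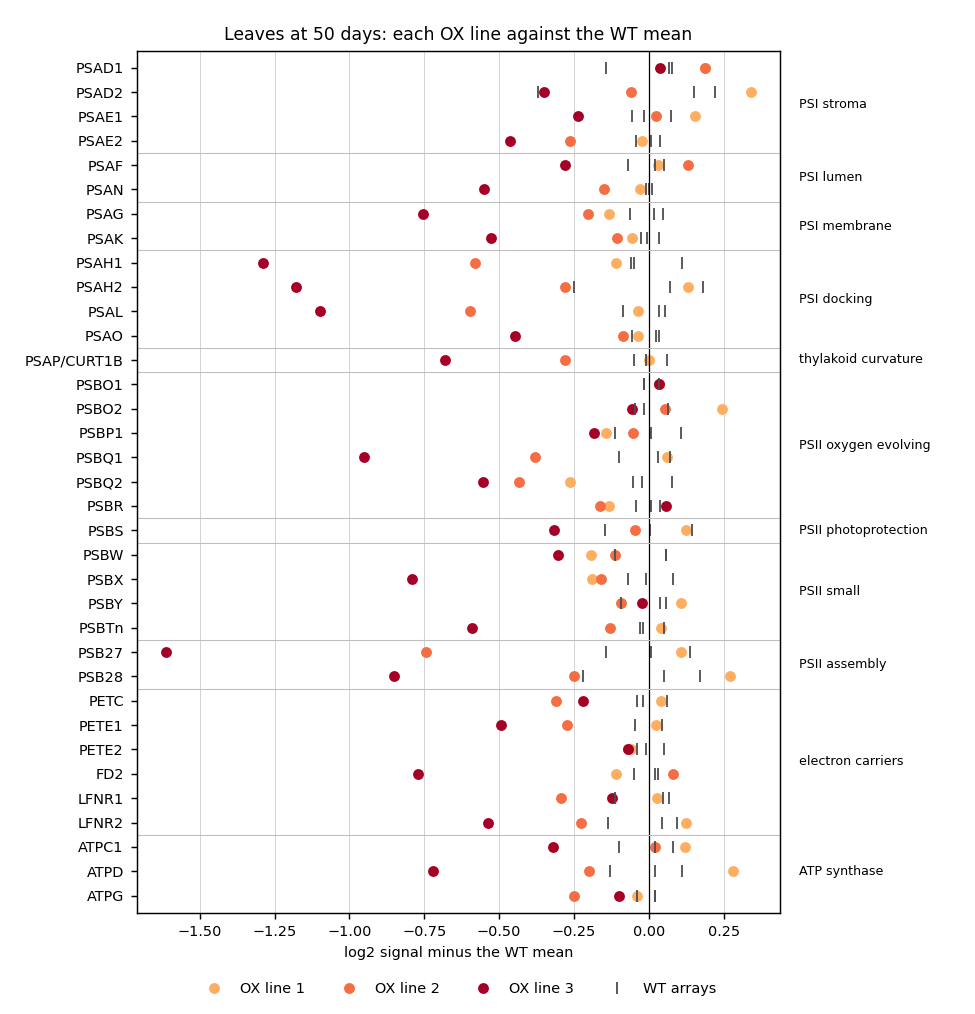
Log2 signal relative to the WT mean (x axis) of each of the 35 genes (rows, grouped by role) in leaves at 50 DAS, with a point for each OX line and ticks for the WT arrays. Line 1 lies close to 0 (median 0.02), while line 3 lies to the left for most genes (median −0.46) and reaches −1.61 in PSB27.

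Across all 5 groups, the mean of WT leaves was the highest for 32 of the 35 genes and that of OX for the other 3. The mean of dark WT was the lowest for 32, that of KO for 2 and that of SRDX for 1. Neighbours in this order, OX and WT leaves on the one hand and SRDX and KO on the other, were not separated by limma at the adjusted limit for any gene, while the q-values separated OX and WT leaves for 12.

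Genes around the photosystem core were taken from lists by function. Of 18 antenna genes, which bring excitation energy to the reaction centres, 15 were higher in KO (83.3%, against 18.1% of all genes). In SRDX 14 were higher (77.8%, against 11.6%), and none was lower in either genotype. Their median log2 difference was 1.01 in KO and 0.88 in SRDX, and the extremes in KO were 1.48 in *LHCB1.4* and −0.04 in *LHCB4.3*. In OX none was called, and in dark WT all 18 were lower than in leaves, by a median of −3.74, beside 40.2% of all genes. *LHCB1* copies are nearly identical, so their probes may share signal.

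Of 18 assembly and regulation genes, 7 were higher in KO (38.9%, against 18.1% of all genes) and 2 lower (11.1%, against 14.2%). In SRDX 10 were higher (55.6%, against 11.6%) and none lower. The largest increase was in *NDHL*, a subunit of the NDH complex of cyclic electron flow around PSI. It read −0.05, −0.11 and 0.26 in KO and 0.03, 0.53 and 0.75 in SRDX, against −1.62, −1.83 and −1.71 in WT (log2 difference 1.75 in KO, limma adjusted p = 0.0117, and 2.15 in SRDX, adjusted p = 0.00908). *NDHL* was also the furthest below leaves in dark WT, at −9.42. In the authors' table its differences were 0.84 in KO, 1.01 in SRDX and −6.96 in dark WT. The genes called lower in KO encode the thylakoid kinases STN7 (−0.79, limma adjusted p = 0.107) and STN8 (−0.66, adjusted p = 0.145), which phosphorylate antenna and PSII proteins. *CURT1C* (AT1G52220), the neighbouring locus of *PSAH2*, read 5.05, 3.46 and 3.44 in KO, 5.02, 4.2 and 5.03 in SRDX and 4.45, 4.5 and 4.74 in WT, with KO replicate 1 and SRDX line 2 apart from their groups as in *PSAH2*.

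Of 8 relatives of the listed genes, 4 were higher and none lower in KO, and likewise in SRDX. The share of 50.0% stands beside 18.1% of all genes higher in KO and 11.6% in SRDX. *PSBP2* had the largest increase, at 1.08 in KO and 1.33 in SRDX. At the other extreme, *PETM*, a small subunit of the cytochrome complex, differed by −1.03 in KO (limma adjusted p = 0.194) and by 0.37 in SRDX. It read 8.57, 6.54 and 6.56 in KO and 8.82, 8.1 and 8.95 in SRDX, against 8.15, 8.28 and 8.31 in WT, with KO replicates 2 and 3 far below the rest. Root-type ferredoxin *FD3* was higher in dark WT than in leaves, with 6.29, 6.26 and 6.30 in dark WT and 3.46, 3.47 and 3.17 in leaves (log2 difference 2.92, adjusted p = 1.74e-06). Its leaf counterpart *FD2* stood at −2.39 in the same comparison. Plastid-encoded subunits were not analysed here.

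Of 6 leaf markers, 5 were higher and none lower in KO, and likewise in SRDX (83.3%, beside 18.1% and 11.6% of all genes). Their summed log2 signal was 9.77 to 10.08 in KO and 9.67 to 10.21 in SRDX, against 9.21 to 9.31 in dark WT and 12.71 to 12.81 in WT leaves. The share of spots well above background was 67.0 to 68.7% in KO and 68.4 to 77.6% in SRDX, against 76.3 to 80.9% in dark WT. Within SRDX, line 3 on the slide of KO had 68.4%, and lines 1 and 2 on another slide 77.5 and 77.6%. Of 10 root markers, 8 were tested at 5 DAD. In KO 1 was higher (12.5%, beside 18.1% of all genes) and 2 were lower (25.0%, beside 14.2%). In SRDX 1 was higher (12.5%, beside 11.6%) and 1 lower (12.5%, beside 8.8%). Their summed signal was 1.06 to 1.80 in KO, 1.13 to 1.16 in SRDX and 1.31 to 1.84 in dark WT, and no array measured *IRT1* or *CASP1* well above background. Between dark WT and leaves, 4 of 7 tested root markers were higher (57.1%, against 45.9% of all genes), with summed signals of 1.31 to 1.84 in dark WT and 0.77 to 1.42 in leaves. In OX leaves the summed root signal was 1.22 to 2.9 and the leaf marker signal 12.58 to 12.79. OX line 2 read 1.7 for *PYK10* and 1.06 for *TIP2;3*, above the other OX lines and every WT leaf array. The part of tissue composition and of array quality in the differences above was not tested.

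For 23 of the 35 genes more than 1 probe was well above background on all arrays. All probes of a gene had the same sign in all 23 genes between dark WT and leaves, in 22 for SRDX against WT, in 20 for KO against WT, in 20 for OX against WT and in 18 for SRDX against KO. The exception in SRDX was *PSAE1*, and those between SRDX and KO were *PSAD1*, *PSAE1*, *PSAP/CURT1B*, *PSBO1* and *PETC*. In OX they were *PSAD1*, *PSBO1* and *PSBO2*, and in KO *PSBO2*, *ATPC1* and *LFNR1*. A dimmer *LFNR1* probe gave −0.08 in KO where the brightest gave 0.48, and a dimmer *ATPC1* probe −0.12 where the brightest gave 0.41.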

How the data were processed

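Each of the 15 arrays was hybridized with Cy3-labelled RNA of 1 sample, 3 in each of 5 groups. The authors deposited background-subtracted spot intensities from Agilent Feature Extraction (version 9.1.3.1 per the labels, 11.5.1.1 per the file headers), with flags for outliers, saturation and signal above background. The authors also deposited a normalized table of natural log values. Its log base is not stated in the sources used here and was settled from the intensities, which it matched as a natural log within 0.0001 in 15 of 15 pairs of arrays. It served as an alternative.

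Intensities were divided by the median of spots passing both outlier filters (1 to 13 spots per array were left out), repeated spots were averaged, and the 15 arrays were quantile normalized and turned into log2. A locus was found for 34348 of 43603 probes (78.8%) through accessions in a RefSeq gene table, which served for names only. A gene entered a fit if, in 1 group or more, all arrays measured it well above background, and was fitted with limma 3.58.1 in R 4.3.3 (lmFit, eBayes), in 3 fits of 6 arrays at 50 DAS, 9 arrays at 5 DAD and 6 WT arrays. The fit was tried on simulated data with independent noise for each gene and array. These had no slide effects or deviations shared by whole arrays, so they do not bear on those. The array number limits the precision. Plots were made with Python 3.11.15 and matplotlib 3.10.9.

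The 35 genes and all lists were chosen with earlier results of these data known. Per comparison, array values are given for up to 5 genes with the largest change each way that passed the limit without overlap, and for paralog pairs past the exact test. Array values of other genes were chosen after their values were seen. Alternatives were scaling, background correction (normexp on median signals, offset 50), the authors' table, probe filters and choices, 1 fit of all arrays, limits, blocks and single arrays left out. Quantile normalization within each experiment was not run across experiments.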

Additional observations from a re-analysis of the deposited data

Results flagged for a closer look

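*PSAL*, a PSI subunit at the docking side for mobile antenna complexes, moved apart in the dark-treated genotypes. It read 5.36, 5.34 and 5.28 in SRDX and 5.04, 4.68 and 4.95 in KO, against 4.89, 5.03 and 5.19 in WT. All 3 SRDX lines were above the WT mean, while KO replicates 2 and 3 were below it and replicate 1 stood at it to 2 decimals. The difference between SRDX and KO was 0.44 (standard error 0.16) and did not pass the limma test (adjusted p = 0.338). Replicate groups of 3 arrays were too small for a test of single outlying arrays.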

How the results depend on the processing

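The 35 genes were lower in dark WT than in leaves, and none higher, under every alternative run. No called gene in KO or SRDX changed direction under any alternative. Of 759 values of called genes under an alternative, 649 stayed past the limit and 110 did not. Some alternatives could hardly lose a call, so the 649 is no measure of stability. The choice of unsaturated probes left these genes unchanged, and Storey's q-values are never above the adjusted p-values. Each kept 33 calls. Without WT replicate 2, 13 calls stayed and 20 did not. For OX, 2 genes were lower in 1 fit of all 15 arrays, beside 16.0% of all genes, and 12 with Storey's q-values (34.5%). Leaving out an array gave 0 to 16, the last without line 1 (31.3%). For KO, 7 were higher at a limit of 0.05 (7.51% of all genes) and 9 with the slide as a random block (11.2%). Leaving out an array gave 6 (7.16%, without WT replicate 2) to 18 (23.8%, without SRDX line 2). For SRDX, 11 were higher at a limit of 0.05 (4.03%) and 27 with Storey's q-values (18.7%). Leaving out an array gave 7 (2.54%, without WT replicate 2) to 28 (20.0%, without SRDX line 2). For SRDX against KO, leaving out an array gave 0 to 3 higher, the last without KO replicate 1 (3.74%). The causes were not tested. Paralog pairs past the limit numbered 1, against 4 with scaling to the 75th percentile, 4 with normexp correction, 3 with the authors' table and 6 with the mean of all probes. Over all genes well above background on every array, deviations of same-numbered arrays from their group means correlated from −0.32 to 0.80. The highest was for number 2 of SRDX and KO. Whether replicate numbers pair the samples was not settled. With the number as a replicate block, 17 genes were higher in KO, beside 19.1% of all genes, and 19 in SRDX (12.4%). In OX 0 were called, as were 0.0% of all genes in either direction. SRDX against KO had 0 calls (0.0314% of all genes higher, 0.0118% lower), and 35 genes were lower in dark WT (40.2%). Where an array is left out, the remaining arrays of a group are assumed to vary like the other groups of the fit.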
